A study of Mus musculus with 12 samples.

Results

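Glycolysis in epididymal white adipose tissue (eWAT) was described through 10 genes, Hk1, Hk2, Hk3, Gpi1, Pfkl, Pfkp, Aldoa, Pgk1, Pkm and Ldha, out of 23474 genes in the expression table. They were found in the table by symbol, and each symbol matched 1 mouse Ensembl identifier. The 12 libraries came from male C57BL/6J mice aged 17 weeks, 3 libraries in each of 4 diet groups of 10 mice, after 12 weeks on the diet. The ND group ate a normal diet and the HFD group a high-fat diet. The GT group received the high-fat diet with 0.25% (w/w) of an ethanol extract of green tea, and the TJ group the high-fat diet with 3% (w/w) Taeeumjowitang, a mixture of medicinal herbs, so HFD, GT and TJ shared the high-fat diet. Each HFD and TJ library was made from 1 randomly selected mouse, and whether this also held for ND and GT is not given in the sources used here. Values are FPKM, fragments scaled to transcript length and library depth, so that levels of different genes can be set beside each other.

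Glycolysis splits glucose into pyruvate in the cytosol and yields ATP and NADH. Hexokinases trap glucose as glucose 6-phosphate, phosphofructokinase makes the committed step, pyruvate kinase forms pyruvate, and lactate dehydrogenase A turns pyruvate into lactate and restores NAD+. In fat tissue the pathway also supplies the glycerol 3-phosphate on which fatty acids are stored, and activated macrophages are known for a high glycolytic rate. Many of these genes are known targets of hypoxia-inducible factor 1, whose response element has the core ACGTG or GCGTG.

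The RefSeq promoter table (GRCm38.p6, 250 bases before to 50 after each start site) held 15 windows for the 10 members. Searched on both strands, ACGTG or GCGTG occurred in a window of 9 of the 10 members, all but Gpi1, and in 46.7% of the 27025 genes in that table. ACGTG alone occurred in 7 of 10 members and in 21.8% of all genes, and GCGTG alone in 4 of 10 and in 35.2%. Members with several windows had more chances of a match, and a match says only that these letters are present. Promoters are shown for Hk3 and Pkm, the members with a called difference, and for Pgk1, which was called only when ND replicate 1 was left out. Capitals mark each ACGTG or GCGTG on either strand, so that CACGT is ACGTG on the other strand. The Hk3 window (chr13:55021336-55021635, minus strand) held 1 match, starting 156 bases before the start site. The Pgk1 window (chrX:106186850-106187149, plus strand) held 2 matches, as did 1 of the 2 Pkm windows (chr9:59656977-59657276, plus strand), and the other Pkm window (chr9:59656326-59656625) held 0. Each is written 5′ to 3′ on the strand of its gene.
Hk3: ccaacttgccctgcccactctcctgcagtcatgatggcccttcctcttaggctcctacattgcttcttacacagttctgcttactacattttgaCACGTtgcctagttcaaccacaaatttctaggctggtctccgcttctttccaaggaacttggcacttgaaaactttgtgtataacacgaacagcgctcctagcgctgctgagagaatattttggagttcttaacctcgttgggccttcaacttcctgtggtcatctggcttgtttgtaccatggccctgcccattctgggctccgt
Pgk1: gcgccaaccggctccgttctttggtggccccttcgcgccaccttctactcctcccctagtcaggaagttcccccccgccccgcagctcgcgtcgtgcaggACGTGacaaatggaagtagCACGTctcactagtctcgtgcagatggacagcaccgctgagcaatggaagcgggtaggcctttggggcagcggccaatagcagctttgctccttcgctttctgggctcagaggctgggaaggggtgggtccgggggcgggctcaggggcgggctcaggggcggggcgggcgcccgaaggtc
Pkm: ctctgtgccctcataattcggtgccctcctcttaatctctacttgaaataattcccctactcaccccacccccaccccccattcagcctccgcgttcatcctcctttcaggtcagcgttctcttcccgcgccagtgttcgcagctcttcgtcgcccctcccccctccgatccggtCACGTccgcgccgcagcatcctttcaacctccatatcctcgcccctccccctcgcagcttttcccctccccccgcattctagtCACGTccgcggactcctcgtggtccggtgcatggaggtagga

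Several libraries stood apart, and some of the results are given with and without them. The library labelled ND replicate 1 had summed FPKM of 15180 over 10 epididymis markers and 99262 over 10 testis germ cell markers, while its sum over 10 adipocyte markers was 4314, against 20121 to 60469 in the other 11 libraries. Its median Spearman correlation with the other libraries across genes was 0.689. Germ cell markers also summed to 3108 in ND replicate 3 and 2117 in HFD replicate 1, against 19.3 to 182 in the remaining 9 libraries. Epididymis markers summed to 1275 in HFD replicate 2 and to at most 18.1 in the other 10 libraries apart from ND replicate 1. Of the 9 libraries on the high-fat diet, TJ replicate 2 had the highest adipocyte sum (60469) and the lowest macrophage sum (861). Summed over all genes, FPKM came to 1002770 in ND replicate 1 and 527904 to 725245 in the other 11 libraries, with 725245 in TJ replicate 2. Depth, estimated from the steps between low FPKM values, was roughly 9.44M to 18.8M fragments per library. In such bulk tissue, fewer cells of a type and less RNA per cell cannot be told apart.

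Marker sums of several cell types moved with the diet. The 10 macrophage markers summed to 112 to 626 FPKM in ND, 3314 to 4570 in HFD, 1356 to 3035 in GT and 861 to 2394 in TJ, and none of them was at 0 throughout a group. In limma, 5 of the 10 were called higher in HFD than in ND (1.73% of all tested genes) and 8 of 10 lower in TJ than in HFD (11.1%). In GT against HFD 0 of 10 were called in limma and 9 had an unadjusted p under 0.05 (29.3% of all genes). With the replicate block, no gene was called in HFD against ND. Fibroblast or progenitor markers summed to 59.6 to 1300 in ND, 1790 to 1941 in HFD, 1165 to 1443 in GT and 934 to 1123 in TJ, with HFD above all other groups, and 3 of 5 were called lower in TJ than in HFD (11.1% of all tested genes). Adipocyte markers summed to 4314 to 36491 in ND, 20121 to 21679 in HFD, 26513 to 31599 in GT and 31758 to 60469 in TJ. Of these 10 markers, 6 were called higher in TJ than in HFD (7.41% of all tested genes) and 2 had lower estimates. Lep was the lowest, at -0.96 on the log2 scale, without overlap and not called. The adipocyte sum rested largely on Fabp4, named after its values were seen, at 12038 to 14495 FPKM in HFD and 21797 to 48299 in TJ. The neutrophil sum was 0.407 to 10.9 in ND, 56.6 to 65.5 in HFD, 37.0 to 80.2 in GT and 16.7 to 78.8 in TJ. The lymphocyte sum was 3.90 to 9.19 in ND, 2.39 to 3.48 in HFD, 3.28 to 5.90 in GT and 6.30 to 10.2 in TJ, so that TJ lay above HFD and GT. Endothelial markers summed to 13.8 to 223 in ND, with 13.8 in ND replicate 1, 192 to 221 in HFD, 212 to 260 in GT and 227 to 373 in TJ, again without overlap between TJ and HFD. The skeletal muscle sum, over the 5 of 6 markers in the table, was 0.147 to 7.96 over the 12 libraries. The mesothelial sum was 22.3 to 58.7 in ND and 1.68 to 14.8 in the other groups, and the erythroid sum was 79.5 to 570 over the 12 libraries.

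Between HFD and ND, 1 of the 10 glycolysis enzymes was called different, Hk3, which was higher in HFD. With the replicate number as a block, 0 of the 10 and 0 of all tested genes were called. A call meant a limma adjusted p (Benjamini-Hochberg over all tested genes) under 0.05 and a fold of at least 1.5, and 1.77% of the 14430 tested genes were called, 1.73% as higher. Values of 5 members (Hk3, Aldoa, Pgk1, Pkm and Ldha) lay above those of ND in every HFD library, as in 20.5% of all tested genes. The median log2 fold change was 0.44 over the members and 0.07 over all genes.

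Between TJ and HFD, 2 of the 10 enzymes, Hk3 and Pkm, were called, both lower in TJ, beside 18.5% of the 12807 tested genes in either direction and 11.1% lower. The members' share was near this background, so it shows nothing particular to them. Values of 5 members (Hk1, Hk3, Pfkp, Pgk1 and Pkm) lay below those of HFD in every TJ library, as in 31.4% of genes. The median was -0.25 over the members and -0.14 over all genes. The latter was -0.01 after median-of-ratios scaling, which turned 949 higher and 1417 lower calls over all genes into 1285 and 1085.

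Between GT and HFD, 0 of the 10 enzymes were called in limma, against 3.63% of the 12766 tested genes, and 1, Pfkl, had an unadjusted p under 0.05, as had 29.3% of all tested genes. Its values did not overlap between the groups and were higher in GT, as for 12.3% of all genes. Over all genes, 233 higher and 231 lower calls became 400 and 145 with median-of-ratios scaling. The median was -0.11 over the members and -0.12 over all genes. Between TJ and GT, 0 of 10 were called in limma, against 0.148% of 12187 genes. Here 2 members, Pfkl and Pfkp, had an unadjusted p under 0.05, as had 24.6% of all tested genes. Both were lower in TJ without overlap, as for 14.9% of all genes, and the medians were -0.24 and -0.03. No member was called in either comparison under any of the 16 alternatives. HFD against ND, GT against HFD and TJ against HFD share the HFD libraries, so their values are given side by side and are not independent.

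**Figure D1:**
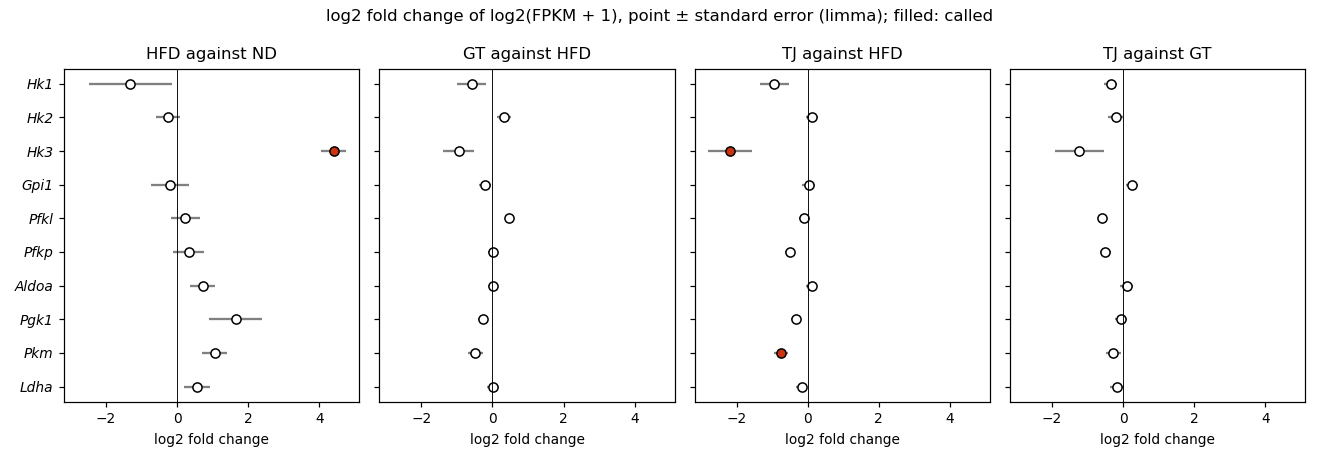
Log2 fold change of log2(FPKM + 1) (horizontal axis) of the 10 enzymes (vertical axis) in the 4 comparisons, as the limma estimate with its standard error, filled where called. Hk3 lies farthest right in HFD against ND, at 4.40, and farthest left in TJ against HFD, at -2.19, and Pkm is the other filled point, at -0.75.

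Hk3 (ENSMUSG00000025877, chromosome 13 of GRCm38, 55005985 to 55021385) encodes a hexokinase found mainly in myeloid cells. Its values were 0.743, 1.68 and 2.01 FPKM in ND, 52.5, 39.6 and 60.0 in HFD, 43.5, 31.0 and 11.8 in GT, and 20.4, 2.80 and 16.2 in TJ. All HFD libraries lay above all ND and all TJ libraries, GT overlapped both HFD and TJ, and TJ replicate 2 was the lowest library on the high-fat diet. The means were 1.48 ± 0.657 in ND, 50.7 ± 10.3 in HFD, 28.8 ± 15.9 in GT and 13.1 ± 9.19 FPKM in TJ (SD, n = 3 each).

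Against ND, HFD was higher by 4.40 on the log2 scale (standard error 0.35, limma adjusted p = 0.00879), a 21.1-fold difference in FPKM + 1. Over all alternatives the log2 fold change was 4.16 to 5.09, highest with a pseudocount of 0.1. With the replicate number as a block, the limma adjusted p was 0.0667. Without ND replicate 1 the log2 fold change was 4.16 and the limma adjusted p 0.000904, and leaving out any other library gave limma adjusted p of 0.0503 to 0.153, with 4.27 to 4.56 on the log2 scale. Of all tested genes, limma called 24 without ND replicate 2, 23 without ND replicate 3 and 0 without any single HFD library or with the block, with 843 to 2239 at an unadjusted p under 0.05 in those with 0. Against HFD, TJ was 4.55-fold lower, or -2.19 on the log2 scale (standard error 0.61, limma adjusted p = 0.0477). Without TJ replicate 2 the log2 fold change was -1.41 and Hk3 was still called, whereas the call was lost when any single HFD library or TJ replicate 1 was left out. In those 4 fits limma called 0 of all tested genes, with 3732 to 4735 at an unadjusted p under 0.05, and the log2 fold change of Hk3 was -2.65 to -2.06. The call was also lost with median-of-ratios scaling, with eBayes without the trend, with no filter and with all 12 libraries in 1 fit (limma adjusted p = 0.0511, 0.0553, 0.1 and 0.128), with log2 fold changes of -2.06 to -2.19, where 18.5%, 16.1%, 1.88% and 0.00781% of all tested genes were called. The corresponding values were -0.95 in GT against HFD (limma adjusted p = 0.197) and -1.23 in TJ against GT (limma adjusted p = 0.284). With 1 library left out they ranged from -1.33 to -0.43 and from -1.75 to -0.46.

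The macrophage markers, and the sum of the fibroblast or progenitor markers, moved with Hk3 in both called comparisons. Hk3 amounted to 0.664%, 0.269% and 0.412% of the summed macrophage marker FPKM in ND, 1.20%, 1.19% and 1.31% in HFD, 1.43%, 1.16% and 0.871% in GT, and 0.852%, 0.326% and 0.792% in TJ. This sum rested largely on Lyz2, named after its values were seen, which held 57.8% to 61.5% of it in HFD. The exact two-sided permutation test gave p = 0.1 for HFD against ND, TJ against HFD and TJ against GT, the smallest that 3 libraries against 3 allow, and p = 0.7 for GT against HFD. Set against each of the 10 markers alone, the ratio of Hk3 to the marker was lower in TJ than in HFD without overlap for 5, higher for 1 and overlapping for 4, and in HFD against ND it was higher for 5, lower for 1 and overlapping for 4. Without ND replicate 1 it was higher for 8, lower for 1 and overlapping for 1. On the log2 scale, 6 of the 10 markers moved less than Hk3 in HFD against ND and 4 moved more (median 3.80, against 4.40 for Hk3), and 7 moved less and 3 more in TJ against HFD (median -1.68, against -2.19). The part of these cell types in the Hk3 values was not tested. The genes most like Hk3 over the 12 libraries on the log2(FPKM + 1) scale were Slc15a3, Il7r and Cd300a, with Pearson r of 0.9981, 0.9967 and 0.9955 among 10141 genes. This likeness is a description over libraries that share the group differences.

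**Figure D2:**
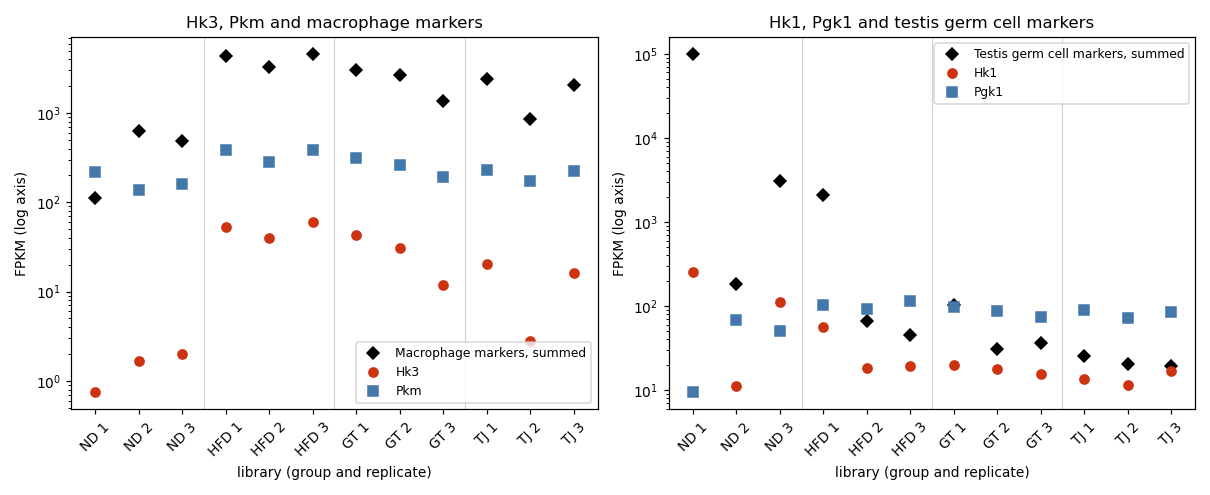
FPKM on log axes in each of the 12 libraries, with Hk3, Pkm and the summed macrophage markers on the left and Hk1, Pgk1 and the summed testis germ cell markers on the right. Hk3 is lowest in ND (0.743 to 2.01 FPKM) and highest in HFD (39.6 to 60.0 FPKM), and Hk1 is highest in the 3 libraries with the most germ cell markers.

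Hk1 (ENSMUSG00000037012, chromosome 10, 62268855 to 62379908), the hexokinase of most tissues, was at 251, 11.2 and 112 FPKM in ND, 56.2, 18.1 and 19.2 in HFD, 20.0, 17.7 and 15.6 in GT, and 13.3, 11.5 and 16.6 in TJ. The 3 highest values fell in the 3 libraries with the most germ cell transcripts, ND replicates 1 and 3 and HFD replicate 1, and the remaining 9 libraries held 11.2 to 20.0 FPKM. The log2 fold change of HFD against ND was -1.32 (standard error 1.17, limma adjusted p = 0.569), and it turned to 0.68 and was called higher in HFD (limma adjusted p = 0.034) without those 3 libraries, where ND was left with 1 library. In TJ against HFD it was -0.94 (limma adjusted p = 0.134), and without HFD replicate 1 it was -0.42. The part of the germ cell transcripts in the Hk1 values was not tested.

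Hk2 (ENSMUSG00000000628, chromosome 6, 82725025 to 82774454), the hexokinase that insulin induces in fat and muscle, was at 11.9, 14.5 and 23.1 FPKM in ND, 11.4, 15.5 and 13.0 in HFD, 13.7, 15.6 and 22.4 in GT, and 14.1, 17.3 and 12.3 in TJ. All 4 groups overlapped, and the log2 fold changes of -0.25, 0.33, 0.12 and -0.21 in HFD against ND, GT against HFD, TJ against HFD and TJ against GT had limma adjusted p of 0.699, 0.296, 0.608 and 0.522. The nearest genes in pattern were Stk40, Tnks1bp1 and Cyb5d2 (Pearson r = 0.8926, 0.8804 and 0.8626 over 12 libraries).

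Among Hk1, Hk2 and Hk3 together, Hk3 made up 0.282%, 6.15% and 1.47% of the hexokinase FPKM in ND, 43.7%, 54.1% and 65.1% in HFD, 56.3%, 48.2% and 23.7% in GT, and 42.6%, 8.87% and 36.0% in TJ. The leading hexokinase therefore differed among libraries: Hk3 led in HFD replicates 2 and 3, GT replicates 1 and 2 and TJ replicate 1, and Hk1 or Hk2 led in the others. The hexokinase that led in HFD replicate 1 was Hk1, at 46.8%.

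**Figure D3:**
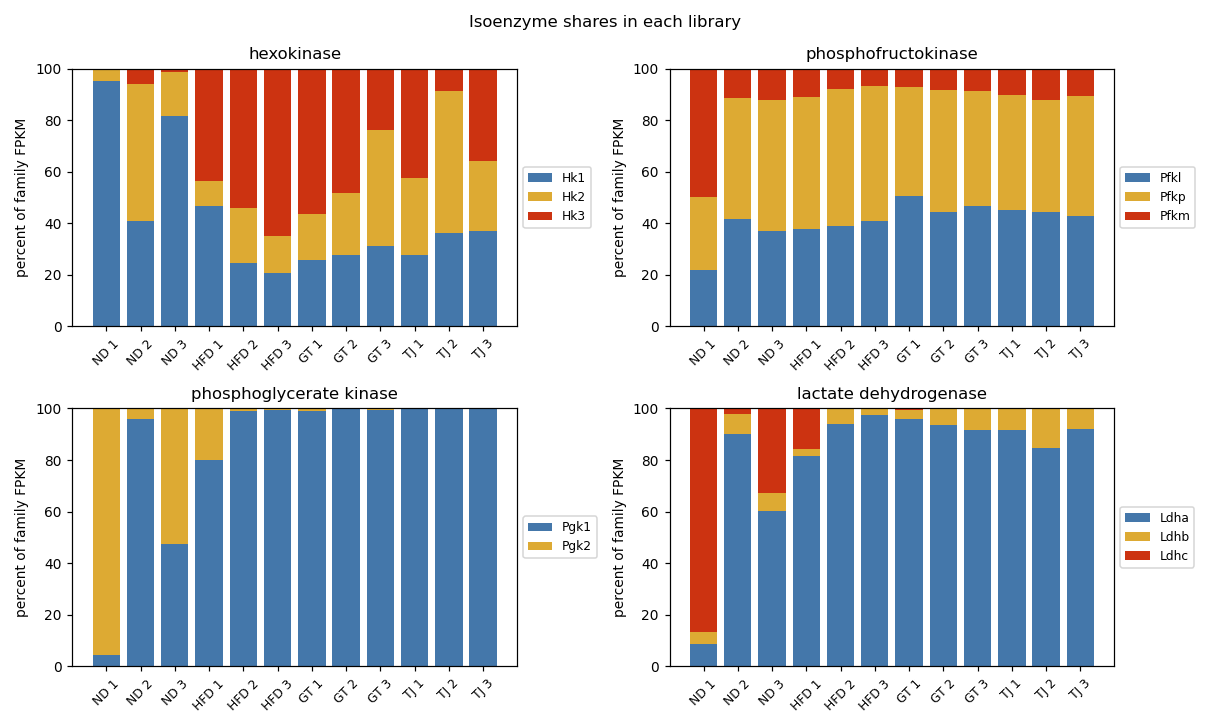
Share of each isoenzyme family's summed FPKM (percent) in each of the 12 libraries, as stacked bars. Hk3 holds 0.282% to 6.15% of the hexokinase bar in ND and 43.7% to 65.1% in HFD, and Pgk2 and Ldhc take up much of the bar only in ND replicates 1 and 3 and HFD replicate 1.

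Gpi1 (ENSMUSG00000036427, chromosome 7, 34201330 to 34230336), which converts glucose 6-phosphate to fructose 6-phosphate, was at 329, 91.0 and 127 FPKM in ND, 163, 111 and 135 in HFD, 131, 117 and 101 in GT, and 134, 156 and 125 in TJ. Apart from ND replicate 1 the groups overlapped within 91.0 to 163 FPKM. The limma log2 fold changes were -0.21, -0.22, 0.03 and 0.25 in the 4 comparisons in the same order, with adjusted p of 0.833, 0.411, 0.9 and 0.339. The first became 0.32 without ND replicate 1.

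Pfkl (ENSMUSG00000020277, chromosome 10, 77986947 to 78010083) encodes the liver-type phosphofructokinase. Its values were 19.7, 35.1 and 53.4 FPKM in ND, 40.3, 34.2 and 44.5 in HFD, 55.0, 54.3 and 56.8 in GT, and 35.1, 38.1 and 36.9 in TJ. The 3 GT libraries lay above the other 9. The log2 fold change was 0.48 in GT against HFD (standard error 0.11, limma adjusted p = 0.0607) and -0.58 in TJ against GT (standard error 0.12, limma adjusted p = 0.101), neither of them called. In HFD against ND and TJ against HFD it was 0.23 and -0.10, with limma adjusted p of 0.768 and 0.582.

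Pfkp (ENSMUSG00000021196, chromosome 13, 6579768 to 6648777), the platelet-type phosphofructokinase, was at 25.3, 39.2 and 73.5 FPKM in ND, 54.5, 46.5 and 57.1 in HFD, 45.9, 58.2 and 54.5 in GT, and 34.3, 36.9 and 40.1 in TJ. The TJ libraries lay below all HFD and GT libraries. The log2 fold change of TJ against HFD was -0.49 (standard error 0.14, limma adjusted p = 0.0468), a 1.41-fold difference that was under the 1.5-fold threshold, so Pfkp was not called. It was -0.17 when a transcript length trend was removed from each library's log2 values before the fit. The longest annotated Pfkp transcript has 8681 nt. TJ against GT gave -0.50 (limma adjusted p = 0.132), and GT against HFD 0.003 (limma adjusted p = 0.989). HFD against ND gave 0.32 (limma adjusted p = 0.698). Pfkm, the muscle form, whose values were seen before it was chosen, supplied 49.8% of the phosphofructokinase FPKM in ND replicate 1 and 6.68% to 12.4% in the other 11 libraries, and Pfkl and Pfkp the rest.

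Aldoa (ENSMUSG00000030695, chromosome 7, 126795234 to 126800751), the aldolase that cleaves fructose 1,6-bisphosphate, had the highest FPKM of the 10 members in every library. Its values were 393, 613 and 499 FPKM in ND, 873, 684 and 886 in HFD, 915, 800 and 745 in GT, and 897, 861 and 869 in TJ. Every ND library lay below every library of the other groups, which overlapped each other. The log2 fold change of HFD against ND was 0.71 (standard error 0.36, limma adjusted p = 0.494), and 0.55 to 0.87 with 1 library left out. Those of GT against HFD, TJ against HFD and TJ against GT were 0.01, 0.11 and 0.10, with limma adjusted p of 0.958, 0.592 and 0.723.

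**Figure D4:**
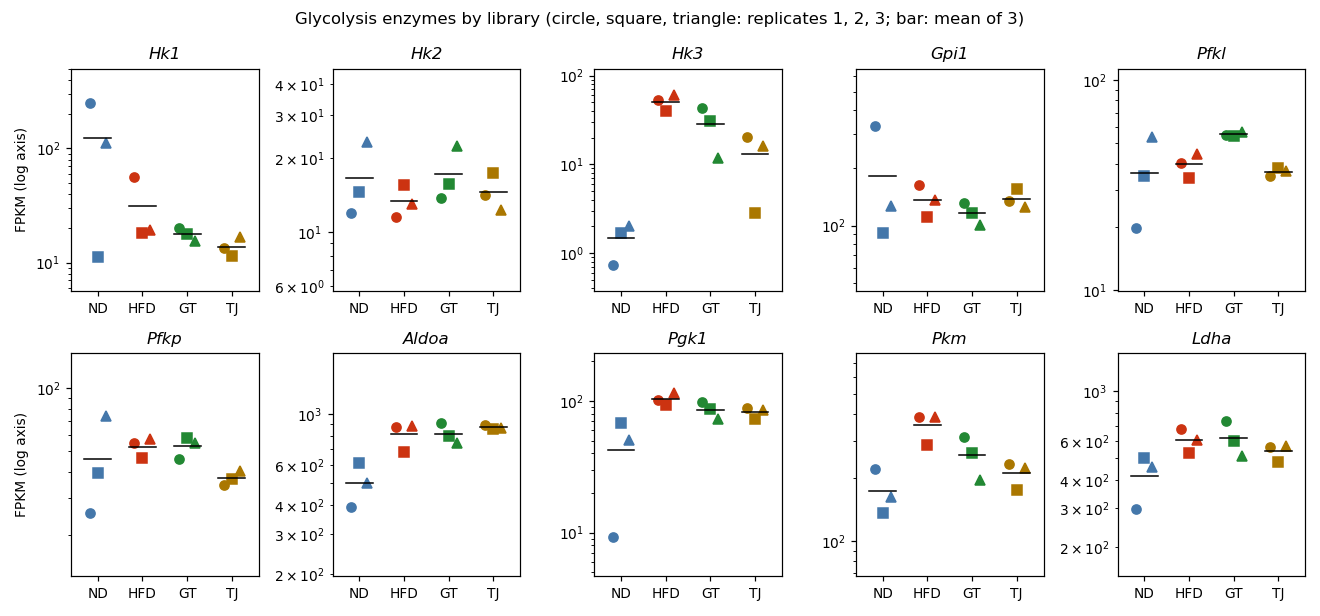
FPKM of the 10 enzymes in each of the 12 libraries by group, 1 panel per gene, each with its own axis. ND replicate 1 gives the highest Hk1 and Gpi1 points (251 and 329 FPKM) and the lowest Pgk1 point (9.35 FPKM), and the 3 GT points of Pfkl (54.3 to 56.8 FPKM) lie above all its others.

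Pgk1 (ENSMUSG00000062070, chromosome X, 106187100 to 106203699) encodes the phosphoglycerate kinase that makes the first ATP of the pathway. Its values were 9.35, 67.6 and 50.9 FPKM in ND, 102, 93.1 and 115 in HFD, 97.6, 87.7 and 72.8 in GT, and 88.8, 72.5 and 84.8 in TJ. ND lay below all other libraries, and TJ lay below HFD. The log2 fold change of HFD against ND was 1.64 (standard error 0.74, limma adjusted p = 0.476), and without ND replicate 1 it was 0.80 and called (limma adjusted p = 0.0361). It was -0.27 in GT against HFD, -0.33 in TJ against HFD and -0.06 in TJ against GT, with limma adjusted p of 0.251, 0.136 and 0.819. Pgk2, the intronless testis form, supplied 95.5% and 52.4% of the summed Pgk1 and Pgk2 FPKM in ND replicates 1 and 3, 20.0% in HFD replicate 1, 4.27% in ND replicate 2 and at most 1.03% in the rest. It was the lowest gene of its list in GT against HFD. Pgk1-rs7, a near copy of Pgk1 chosen after its values were seen, was listed at 0.0572 to 9.14 FPKM, and fragments could be split between these genes.

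Pkm (ENSMUSG00000032294, chromosome 9, 59656368 to 59679375) encodes pyruvate kinase M, whose 2 splice forms, PKM1 and PKM2, are not separated in gene-level values. It was at 220, 136 and 161 FPKM in ND, 389, 286 and 389 in HFD, 313, 263 and 194 in GT, and 232, 175 and 221 in TJ. Every HFD library lay above every ND and TJ library, and GT overlapped HFD, ND and TJ. The means were 172 ± 43.2, 355 ± 59.5, 257 ± 59.6 and 209 ± 30.3 FPKM in ND, HFD, GT and TJ (SD, n = 3 each). In TJ it was 1.69-fold lower than in HFD, or -0.75 on the log2 scale (standard error 0.19, limma adjusted p = 0.0387). That call was lost when any single HFD library or TJ replicate 1 was left out, with no filter, with all 12 libraries in 1 fit and with median-of-ratios scaling (limma adjusted p = 0.0646 with the last). Its log2 fold change over all alternatives was -0.96 to -0.61, and the same fits called few or 0 of all tested genes, as given for Hk3, except with median-of-ratios scaling (18.5%).

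Between HFD and ND, Pkm was 1.05 higher on the log2 scale (standard error 0.34, limma adjusted p = 0.287). Without ND replicate 1 it was 1.24 higher and called (limma adjusted p = 0.0131). It was 1.29 higher without the 3 libraries with germ cell transcripts, where ND was left with 1 library. GT against HFD gave -0.48 (limma adjusted p = 0.176) and TJ against GT -0.28 (limma adjusted p = 0.415). The summed macrophage and fibroblast or progenitor markers were lower in every TJ than in every HFD library, as Pkm was, and their part in the Pkm difference was not tested. The genes most like Pkm in pattern were Tubb6, Sfxn3 and Hmga1 (Pearson r = 0.9854, 0.9851 and 0.9793 over 12 libraries).

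Ldha (ENSMUSG00000063229, chromosome 7, 46841475 to 46855627), which reduces pyruvate to lactate, was at 297, 502 and 456 FPKM in ND, 680, 529 and 608 in HFD, 738, 596 and 512 in GT, and 561, 481 and 571 in TJ. ND lay below HFD and GT, while HFD, GT and TJ overlapped. The limma log2 fold changes of 0.56, 0.01, -0.17 and -0.18 in HFD against ND, GT against HFD, TJ against HFD and TJ against GT had adjusted p of 0.502, 0.965, 0.432 and 0.553. With 1 library left out, that of HFD against ND was 0.33 to 0.71. Ldhb, the form that favours the oxidation of lactate, was higher in TJ than in HFD by 1.42 on the log2 scale (limma adjusted p = 0.0386). The ratio of Ldha to Ldhb FPKM was 1.82, 11.5 and 8.68 in ND, 29.4, 16.3 and 44.9 in HFD, 25.7, 15.4 and 11.4 in GT, and 11.4, 5.46 and 11.6 in TJ. Each HFD ratio lay above each ND and TJ ratio, with exact two-sided permutation p = 0.1 for both comparisons, the smallest possible, and p = 0.2 for GT against HFD and for TJ against GT. Ldhc, the sperm form and the lowest gene of its list in 3 of the 4 comparisons, was at 3027 and 250 FPKM in ND replicates 1 and 3, 132 in HFD replicate 1 and 0 to 11.7 in the other libraries.

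Several members share sequence or span with other genes. Hk3 overlaps Unc5a (mean 8.66 FPKM over the 12 libraries), Pfkp overlaps Pitrm1 (14.9) and Aldoa overlaps Fam57b (3.79), each on the opposite strand. Strand-specific counting is not stated, so fragments from these overlaps cannot be told apart. These neighbours were chosen by position.

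The other genes of the pathway were read as 8 lists of 65 genes in all. In TJ against HFD, 13 of 57 tested genes (22.8%) were called, 8 higher and 5 lower, beside 18.5% of all tested genes. The mitochondrial pyruvate carrier subunits rose in TJ, Mpc1 from 105, 119 and 121 FPKM in HFD to 178, 191 and 157, by 0.60 on the log2 scale (limma adjusted p = 0.0343), and Mpc2 by 0.78 (limma adjusted p = 0.0247). Neither overlapped between the groups. Bsg, the chaperone of lactate transporters, rose by 0.69 (limma adjusted p = 0.0402), while Slc16a3, a lactate exporter, fell by 0.88 (limma adjusted p = 0.0435) from 3.50 to 5.33 FPKM in HFD to 1.21 to 2.49 in TJ.

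Among the regulators of phosphofructokinase and pyruvate dehydrogenase, TJ libraries were higher in Pfkfb1 (0.60, limma adjusted p = 0.0363) and Pdk2 (1.24, limma adjusted p = 0.0303). Pfkfb4 and Pdk1 fell by 1.26 and 0.60 (limma adjusted p = 0.039 and 0.0284). Pfkfb enzymes set the level of fructose 2,6-bisphosphate, the activator of phosphofructokinase, and Pdk kinases switch off pyruvate dehydrogenase. Pgam1, the mutase after phosphoglycerate kinase, and Eno2, an enolase, fell by 0.73 and 0.86 (limma adjusted p = 0.0466 and 0.0219). Epas1, the hypoxia-inducible factor 2 alpha subunit, rose by 0.76 (limma adjusted p = 0.0248), and Hif1a was the lowest of its list at -0.87, not called. Of the pentose phosphate pathway, 0 of 7 genes were called in limma in TJ against HFD, with 2 at an unadjusted p under 0.05, and of the glycerol 3-phosphate shuttle 0 of 2, with 1, beside 41.4% of all tested genes.

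Pck1, the cytosolic phosphoenolpyruvate carboxykinase of gluconeogenesis and glyceroneogenesis, had the highest log2 fold change of the pathway lists in TJ against HFD. It was at 266, 246 and 227 FPKM in HFD, 444, 819 and 980 in GT and 940, 1626 and 818 in TJ, so that both groups lay above HFD. Its log2 fold change was 2.13 in TJ against HFD (standard error 0.26, limma adjusted p = 0.0196) and 1.53 in GT against HFD (standard error 0.28, limma adjusted p = 0.0411), and both comparisons use the same HFD libraries. In ND it was at 77.2, 2130 and 1954 FPKM, the lowest value again in ND replicate 1.

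In GT against HFD, 3 of 58 tested pathway genes (5.17%) were called, beside 3.63% of all genes. These were Pck1, Slc16a1, a lactate and pyruvate transporter that rose by 0.83 (limma adjusted p = 0.0338), and Pfkfb4, which fell by 0.65 (limma adjusted p = 0.0379). Under the 16 alternatives Slc16a1 was called in 7, Pck1 in 6 and Pfkfb4 in 4, with no change of direction. None of the 3 was called with no filter, with all 12 libraries in 1 fit, with the replicate block or with eBayes without the trend. Of all tested genes, those fits called 5, 1, 5 and 67, against 464 in the main fit. None was called in 5 of the 6 fits with 1 library left out, all but that without GT replicate 1. Those 5 fits called 4 to 66 genes in all. Over the alternatives, the log2 fold change was 0.76 to 0.96 for Slc16a1, 1.29 to 1.86 for Pck1 and -0.72 to -0.52 for Pfkfb4. Gapdh, the reference gene of the study's RT-qPCR, was the highest of its list at 0.79 without being called (limma adjusted p = 0.0751). Its values were 50.2, 231 and 128 FPKM in ND, 62.6, 114 and 97.2 in HFD, 155, 146 and 160 in GT, and 67.7, 85.3 and 75.7 in TJ, so that GT lay above HFD and TJ. In TJ against GT, 0 of 54 pathway genes were called in limma, with 13 at an unadjusted p under 0.05 (24.6% of all tested genes).

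In HFD against ND, 0 of 61 pathway genes were called in limma, with 8 at an unadjusted p under 0.05 (11.6% of all tested genes). Without ND replicate 1, 7 were called higher and 5 lower, where 15.4% of all tested genes were called. For TJ against HFD, 0 were called when any single HFD library or TJ replicate 1 was left out and with all 12 libraries in 1 fit, and 3 higher and 1 lower with no filter. Over all tested genes, these fits called 0, 1 gene and 1.88%. None of the 13 changed direction under an alternative that tested it. The 13 were each called in 5 to 11 of these alternatives (16 for each gene but Slc16a3, with 15), Slc16a3 and Pdk1 in 5 and Mpc1 and Bsg in 6. The log2 fold change ranged from 0.25 to 0.74 for Mpc1 and from 0.44 to 0.83 for Bsg. The macrophage and fibroblast or progenitor sums did not overlap between the groups in either comparison. The adipocyte sum did not overlap between TJ and HFD, while its HFD values (20121 to 21679) lay within the ND range (4314 to 36491). The part of these cell types in the pathway differences was not tested.

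**Figure D5:**
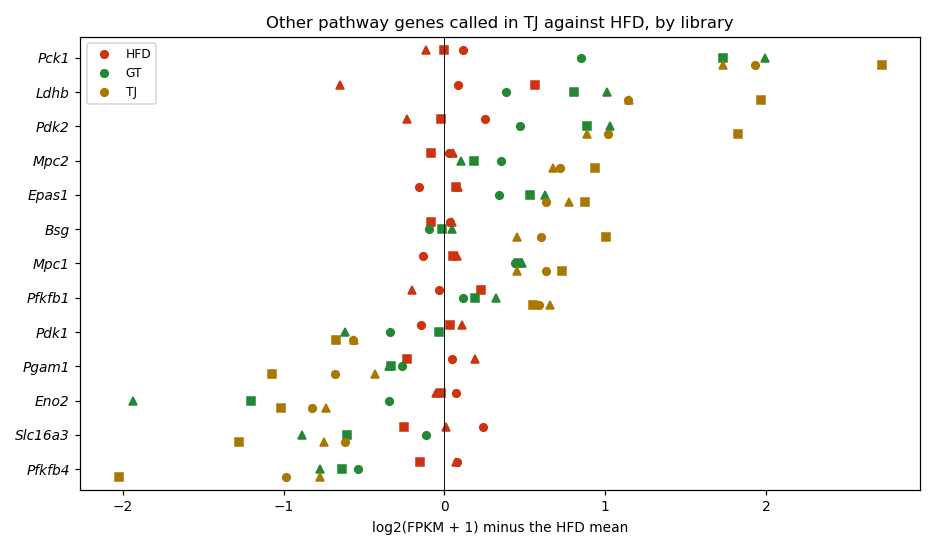
Log2(FPKM + 1) minus the HFD mean (horizontal axis) for the 13 other pathway genes called in TJ against HFD (vertical axis), 1 point per HFD, GT and TJ library, with a circle, square and triangle for replicates 1, 2 and 3. The 13 genes were plotted because they were called in these libraries, and TJ and HFD did not overlap in 51.5% of all tested genes. The 3 TJ points lie on 1 side of the 3 HFD points for each gene, and Pck1 has the farthest TJ points to the right.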

How the data were processed

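RNA from eWAT of 12 mouse libraries was sequenced on an Illumina instrument. The deposited FPKM values were computed by the authors with Cufflinks from reads mapped with STAR, masking noncoding regions and correcting for multiply mapped reads and fragment bias. The submitters' processing notes name CASAVA 1.8.2, STAR 2.4.0 and Cufflinks 2.1.1. The study's methods name the human genome, but all 23474 identifiers in the table are mouse. GENCODE M21 (GRCm38) named 22671 of them and left 803 without a symbol. All columns were mapped to samples and no pair of libraries held identical values.

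Groups were compared on log2(FPKM + 1) by limma 3.58.1 (R 4.3.3), using lmFit and then eBayes with a trend. Each fit used the 6 libraries of both groups, and a gene was tested where its mean over them reached 1 FPKM. Fold changes on this scale understate those of low genes. A call needed a Benjamini-Hochberg adjusted p under 0.05 and a fold of at least 1.5. Percent shares and ratios were computed here from the deposited FPKM and compared with exact permutation tests (scipy 1.17.1). The limma fits were tested on simulated data. The p-values measure only the spread between these libraries. FPKM give no counting error, and the depths are approximate.

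Members, pathway lists and marker lists were chosen with earlier results of these data known. The text names all 10 members, pathway genes that were called or were highest or lowest of their list, and the 3 nearest genes in pattern of Hk2, Hk3 and Pkm. Other genes are named as chosen later. The alternatives were a pseudocount of 0.1, quantile normalization, no filter, a filter at 5 FPKM, all 12 libraries in 1 fit, scaling by median of ratios, the replicate block, eBayes without the trend, removal of a transcript length trend (loess span 0.5) and each library left out. Leaving out ND replicate 1 from a fit of the other 11 libraries, and leaving out the 3 libraries with germ cell transcripts, were chosen after seeing the data.

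The replicate numbers were checked by the correlation across genes of each library's deviation from its group. Same-numbered HFD and ND libraries correlated at 0.547, 0.342 and 0.122 (numbers 1, 2 and 3). The same number gave the best match for HFD replicates 1 and 2, but HFD replicate 3 correlated best with ND replicate 2, at 0.626. HFD replicate 1 and ND replicate 1 both held germ cell transcripts. No source names anything shared by a number, so whether HFD and ND libraries are paired could not be settled. The main fit left the numbers out, and the replicate block was an alternative. The numbers did not pair the libraries of the other comparisons.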

Additional observations from a re-analysis of the deposited data

How the results depend on the processing

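The number of called glycolysis enzymes depended on the libraries and the scaling. In HFD against ND (1 called) it was 2 with all 12 libraries in 1 fit (7.84% of all tested genes called, against 1.77%), 0 with the replicate block (0%), 3 with 11 libraries in 1 fit (19.4%), 3 without the 3 libraries with germ cell transcripts (25.9%), and 0 to 3 when 1 library was left out, with 3 only without ND replicate 1 (15.4%). In TJ against HFD (2 called) it was 0 with no filter (1.88% of all tested genes called, against 18.5%), with median-of-ratios scaling (18.5%) and with all 12 libraries in 1 fit (0.00781%), 1 with eBayes without the trend (16.1%), and 0 to 2 when 1 library was left out, with 0 only in the 4 fits that called 0 genes in all. It was 0 under all alternatives in the other comparisons. The replicate block left 2 enzymes called in TJ against HFD and 0 in GT against HFD and TJ against GT, where the numbers do not pair the libraries (correlations of 0.198, 0.0534 and -0.0698 for GT and HFD, -0.0287, -0.0514 and 0.227 for TJ and HFD, and 0.371, -0.213 and -0.0793 for TJ and GT). Over all genes it gave 0 calls in HFD against ND (255 without it), 5 in GT against HFD (464), 1198 in TJ against HFD (2366) and 18 in TJ against GT (18). The cause of these changes was not tested. Fits with 1 library left out also had fewer samples, and some of them called more genes in all. These included 2098 in HFD against ND without ND replicate 1 and 3412 in TJ against HFD without TJ replicate 3.

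Enzymes that were not called changed direction as follows on the log2 scale. In HFD against ND, Gpi1 was 0.045 with quantile normalization and 0.32 with 11 libraries, where Pfkl was -0.13 and Pfkp -0.032. Without the 3 libraries with germ cell transcripts, Gpi1 was 0.42 and Hk1 0.68, which was then called (limma adjusted p = 0.034). In TJ against HFD, Pfkl was 0.036 with median-of-ratios scaling, Gpi1 -0.084 and Aldoa -0.21 with quantile normalization, and Aldoa -0.13 with the length trend removed. In TJ against GT, Aldoa was -0.23 with quantile normalization and -0.17 with the length trend removed. With 1 library left out, the ranges that crossed 0 were -0.60 to 0.32 for Gpi1, -0.13 to 0.56 for Pfkl, -0.032 to 0.72 for Pfkp and -0.44 to 0.0068 for Hk2 in HFD against ND. They were -0.083 to 0.10 for Pfkp, -0.11 to 0.081 for Aldoa and -0.13 to 0.14 for Ldha in GT against HFD, -0.11 to 0.17 for Gpi1, -0.0068 to 0.18 for Aldoa and -0.0049 to 0.23 for Hk2 in TJ against HFD, and -0.18 to 0.033 for Pgk1 in TJ against GT. Hk3 and Pkm kept their direction in all 4 comparisons under all alternatives. With 1 ND library left in a fit, that library was assumed to vary like the others. Depth limits statements on genes near 1 FPKM, such as Hk3 in ND.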
